A study of Drosophila melanogaster with 14 samples.

Results

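The mitochondrial genome of Drosophila melanogaster was followed across 8 ovary libraries through the 20 bins of 1 kb that the deposited files place on chrM of the dm3 build. Every chrM bin was taken, without regard to its values, so the set is 20 of the 168744 bins in each file. The bins run from position 1 to 19517, and the last is 517 bp long. They hold the 37 mitochondrial genes, of which 13 encode proteins, 22 encode tRNAs and 2 encode ribosomal RNAs.

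All libraries came from ovaries of adult flies aged 3 to 14 days, and every group carried the germline driver GAL4::VP16-nos.UTR, inserted as CG6325[MVD1], in which nanos sequences drive GAL4. The shCuff flies also carried the hairpin insertion TRiP.GL00054 at attP2 against cuff, which encodes Cutoff, a nuclear protein needed to make piRNAs from dual-strand clusters. The shWhite control carried TRiP.HMS00017 at attP2, aimed at white, a gene for eye pigment. The run-on control carried the driver in a w[1118] background with no hairpin, so its genotype differs from that of the RNA controls. A nos driver acts in germ cells, while whole ovaries also hold somatic follicle cells that such a hairpin does not reach. Total RNA depleted of ribosomal RNA had 2 libraries per genotype, and bead-selected poly(A) RNA and nuclear run-on had 1 per genotype. In run-on, RNA extended in the presence of BrUTP is captured with an antibody, so it samples RNA under synthesis. The first library set (AC in the titles) held the poly(A) pair and replicate 1 of total RNA, and the second set (ES) held the run-on pair and replicate 2 of total RNA. Another 6 samples of the series were not analysed here.

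Animal mitochondrial DNA is a compact circle with genes on both strands. A dedicated mitochondrial polymerase copies it into long precursors, tRNAs that lie between the other genes are cut out, and the mRNAs released in this way receive short poly(A) tails inside the organelle. The encoded proteins are core subunits of the respiratory chain and of ATP synthase. In the fly ovary, mitochondria multiply in the germline and are passed to the oocyte, so their transcripts are among the abundant RNAs of the tissue. Cutoff acts on nuclear RNA polymerase II transcripts, and the mitochondrial genome is not known as one of its targets.

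Genes were placed in bins from background knowledge of the dm3 map, and the gene order of that placement was checked against the RefSeq table of a later assembly (Release 6 plus ISO1 MT), with 37 of 37 genes in the same order. Bins are numbered 1 to 20 from the start of chrM. A bin often holds parts of several genes, so a value belongs to the bin and not to 1 gene. The deposited counts carry no strand, so in a genome transcribed from both strands a read cannot be assigned to the sense or the antisense transcript.

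Depth ranged from 2438630 to 10932667 reads per library. The bin with the highest average share outside chrM, on unplaced scaffold U from 5301001 to 5302000, took 5.30% to 10.4% of reads in the first set and 0.128% to 1.51% in the second. Values are given as RPM, reads per 1000000 library reads. For a bin of 1 kb this equals the deposited RPKM. Intervals are 95% exact intervals (Clopper-Pearson, conditional for ratios) and cover counting error only, since PCR copies are not separate molecules and no interval covers the spread between libraries.

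Mitochondrial reads made up about 3% of the first-set libraries but far less of the second-set total RNA. In total RNA of the first set chrM took 3.01% of reads in shWhite (2.99% to 3.03%) and 3.06% in shCuff (3.04% to 3.08%). The second set gave 0.342% in shWhite (0.337% to 0.346%) and 0.109% in shCuff (0.106% to 0.111%). Poly(A) RNA had 3.43% in shWhite and 2.83% in shCuff. The poly(A) shares thus lay on either side of the first-set total RNA shares, and the second-set total RNA stood far below both. Run-on had 2.08% in the driver control and 2.86% in shCuff. The second-set run-on libraries were thus close to the first-set RNA libraries and not to the total RNA of their own set.

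**Figure D1:**
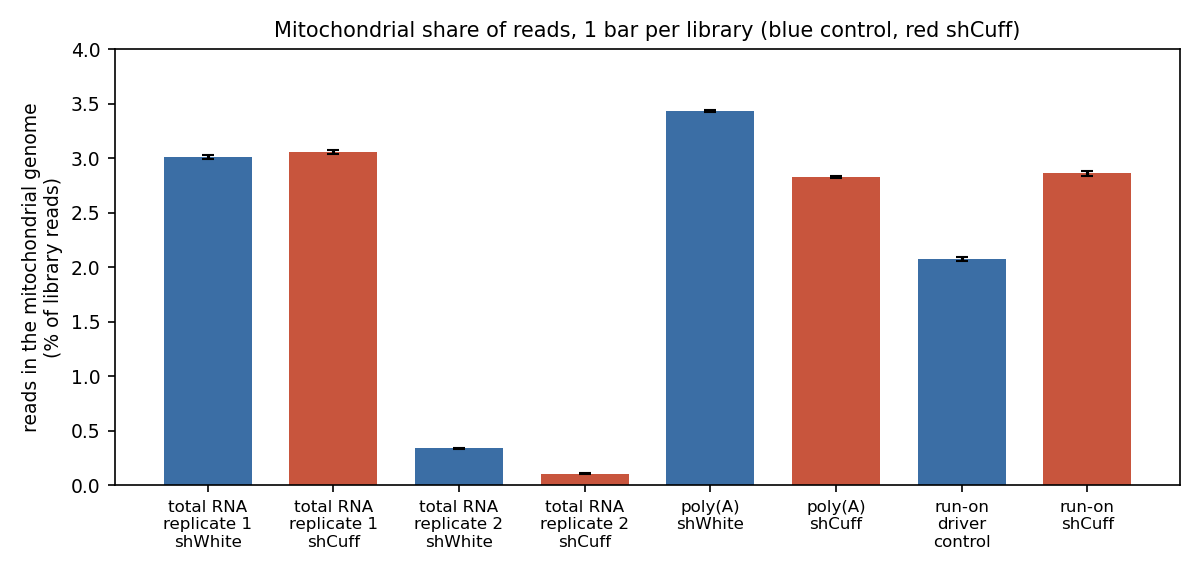
Share of library reads that lie on the mitochondrial genome (y axis, percent), 1 bar per library (blue control, red shCuff), with 95% exact counting intervals as error bars. Total RNA replicate 2 sits at 0.342% and 0.109%, and every other library sits between 2.08% and 3.43%.

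The spread between the total RNA libraries of 1 genotype exceeded the difference between genotypes. The chrM share was 8.81 times higher in replicate 1 than in replicate 2 of shWhite and 28.1 times higher in shCuff. The group means were 1.68% ± 1.89 (SD, n = 2) for shWhite and 1.58% ± 2.08 (SD, n = 2) for shCuff. The gap between sets was also uneven along the genome. In shWhite, bin 12 (CYTB and ND1) of the second set was at 0.0169 of its first-set RPM, bin 4 (COX2 and ATP8) at 0.0177 and bin 2 (ND2 and COX1) at 0.247, while bin 1 (ND2) was at 1.97. In shWhite 8 of the 11 bins with at least 100 reads in both libraries were at least 2-fold lower in the second set, against 25.2% of all 4411 such bins of the genome. The counts for shCuff were 7 of 8 bins, against 37.4% of 3537. The median ratio over these chrM bins was 0.0572 in shWhite, against 0.721 over all bins, and 0.0293 in shCuff, against 0.635. The part of library preparation or read mapping in this gap was not tested.

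Along the genome, reads were concentrated in the stretch from COX1 to ND3, bins 2 to 6. These genes encode the 3 mitochondrial subunits of cytochrome c oxidase (COX1, COX2, COX3), the 2 of ATP synthase (ATP6, ATP8) and ND3, a subunit of complex I. The stretch held 87.7% of chrM reads in shWhite and 91.0% in shCuff in first-set total RNA, and 89.3% and 93.7% in poly(A) RNA. In the second set it held 90.0% and 64.7% of total RNA and 76.3% of control and 68.3% of shCuff run-on. Its share was thus high in all 8 libraries and lowest in the shCuff libraries of the second set.

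Bin 2, chrM from 1001 to 2000, with the end of ND2, 3 tRNA genes and the start of COX1, the catalytic subunit of cytochrome c oxidase, had the most chrM reads in each of the 8 libraries. Its level in first-set total RNA was 10462 RPM in shWhite and 12385 in shCuff. In poly(A) RNA it was 10726 and 9694 RPM, and in run-on 7282 in the control and 9575 in shCuff. In the second set of total RNA it was 2579 RPM in shWhite and 357 in shCuff. The 6 libraries other than second-set total RNA therefore lay within a narrow band, and the 2 libraries of that group lay below it and apart from each other. By reads, bin 2 ranked 2nd to 4th among all bins of the genome in those 6 libraries, 27th in shWhite replicate 2 and 317th in shCuff replicate 2. Bin 2 alone made up 75.5% of chrM reads in shWhite replicate 2, against 31.2% to 40.5% in the other 7 libraries.

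The remaining bins of the stretch were lower than bin 2 in every library. Bin 3, which lies within COX1, had 3729 and 3483 RPM in first-set total RNA of shWhite and shCuff, 4069 and 4037 in poly(A) RNA, and 5305 and 6189.8 in control and shCuff run-on. In the replicate 2 pair of total RNA it had 208 and 95.04 RPM. Bin 4, with COX2 and ATP8, had 5751 and 5767 RPM in first-set total RNA of shWhite and shCuff and 7365 and 5501 in poly(A) RNA, but 1064 in control run-on and 1389 in shCuff run-on. The order of these bins therefore differed between the sets: bin 4 exceeded bin 3 in the 4 first-set libraries, and bin 3 exceeded bin 4 in the 4 second-set libraries. Bin 5 (ATP6) and bin 6 (COX3 and ND3) held 4.10% to 8.24% and 16.05% to 21.1% of chrM reads in the first set. In run-on they held 0.705% and 9.80% in the control and 0.959% and 7.40% in shCuff.

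**Figure D2:**
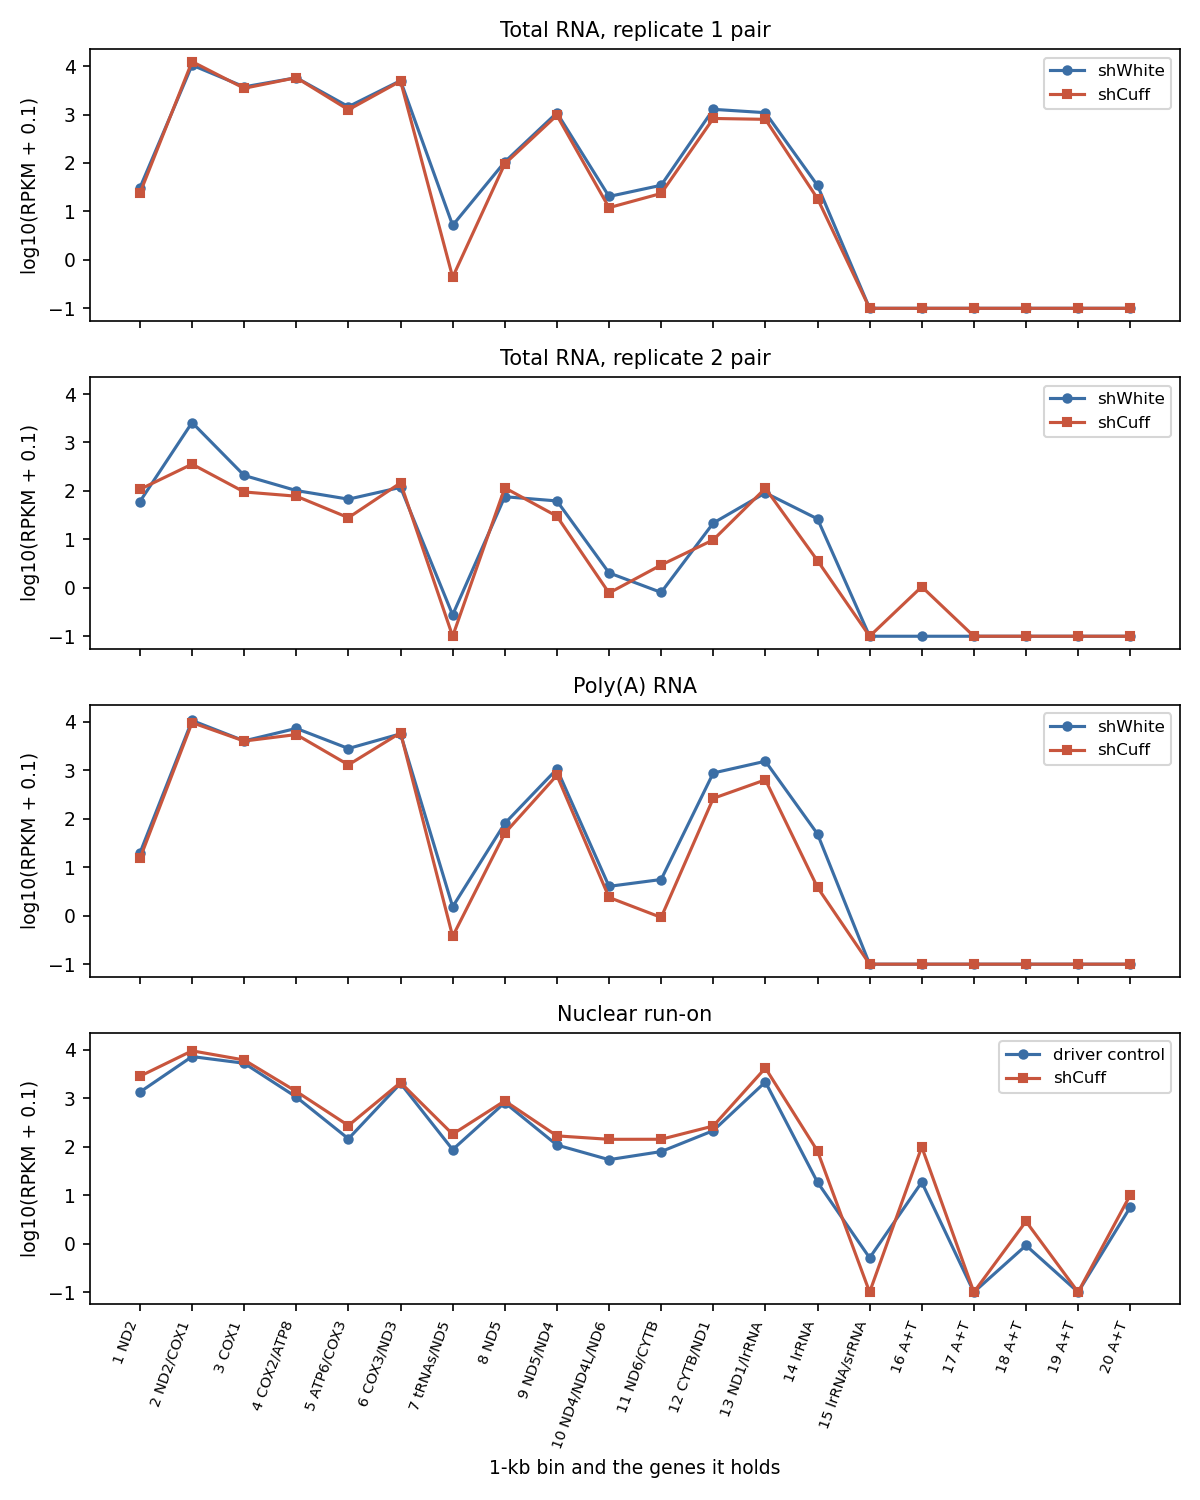
Level of each 1-kb mitochondrial bin (y axis, log10 of RPKM plus 0.1; x axis, bin number with the genes it holds) in the 4 pairs of libraries (blue control, red shCuff). Bins 2 to 6 hold 64.7% to 93.7% of chrM reads in every library, bin 7 is near 0 in the RNA libraries, and bins 15 to 20 hold few or no reads, and in RNA only the 7 reads of bin 16 in shCuff replicate 2.

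The genes of the 7 complex I subunits, which form part of the enzyme that takes electrons from NADH, are spread over both strands. Of the bins that hold parts of them, bins 1, 7, 8, 10 and 11 had at most 105 RPM in first-set total RNA. The others were higher in shWhite of that set: bin 9 (ND5 and ND4) had 1085 RPM, bin 12 (CYTB and ND1) 1280 and bin 13 (ND1 and lrRNA) 1092. Bin 6 (COX3 and ND3) had 5008 RPM there and bin 2 (end of ND2 and COX1) 10462. Bin 1, with most of ND2 and 3 tRNA genes, had 30.7 and 23.7 RPM in first-set total RNA of shWhite and shCuff and 19.6 and 15.1 in poly(A) RNA. In the second set it had 60.3 RPM in shWhite and 108 in shCuff in total RNA, and 1348 in control run-on and 2864 in shCuff run-on. Its share of chrM reads was 0.0534% to 0.102% in the 4 first-set libraries and 1.77% to 10.01% in the 4 second-set libraries, with no overlap between the sets.

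Bin 8, within ND5, showed the same order, with 0.178% to 0.349% of chrM reads in the first set and 2.22% to 10.6% in the second. Bin 9, with ND5 and ND4, held 2.81% to 3.61% in the first set, 1.82% and 2.75% in second-set total RNA and 0.523% and 0.587% in run-on. Bin 7, chrM from 6001 to 7000, with a run of tRNA genes and the end of ND5, held 17, 1, 1 and 0 reads in total RNA (shWhite and shCuff of the first set, then of the second) and 12 and 3 in poly(A) RNA, but 213 in control run-on and 457 in shCuff run-on. This bin was close to empty in RNA although bin 2 had at least 2620 reads in each library, and was covered in both run-on libraries. Bins 10 and 11, with ND4, ND4L, ND6 and CYTB, the mitochondrial subunit of complex III, had 0.681 to 34.5 RPM over the 6 RNA libraries. In run-on they had 54.1 and 79.6 RPM in the control and 143 RPM each in shCuff.

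Of the 3 bins with ribosomal RNA genes, bins 14 and 15 held few reads and bin 13, shared with ND1, held more. Ribosomal RNA had been depleted before the total RNA libraries were made, and a code in the names of the deposited files may mean that reads matching ribosomal RNA were also set aside, which the labels do not state. Levels of these RNAs therefore cannot be told apart from their removal. Bin 14, within lrRNA, the RNA of the large mitochondrial ribosomal subunit, had 115 and 54 reads in the replicate 1 pair of total RNA, 150 and 26 in the replicate 2 pair, 407 and 41 with poly(A) selection and 45 and 205 for run-on, control first in each pair. Bin 15, with the rest of lrRNA and srRNA, the RNA of the small subunit, had 1 read in control run-on and 0 in the other 7 libraries, which allows up to 0.274 to 1.19 RPM there. Bin 13, chrM from 12001 to 13000, holds ND1 and the end of lrRNA on the map and carried most reads of the 3 rRNA-bearing bins in each library. It had 1092 and 796 RPM in first-set total RNA of shWhite and shCuff, 1547 and 639 in poly(A) RNA, 91.1 and 113 in second-set total RNA, and 2179 in control run-on and 4226 in shCuff run-on. Reads of ND1 and of lrRNA in this bin could not be separated.

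The 5 bins of the A+T-rich control region, which holds the origins of replication, were empty in 5 of the 6 RNA libraries and had 7 reads in shCuff replicate 2 of total RNA. In run-on, bin 16, next to srRNA, had 45 reads in the control and 250 in shCuff, bin 18 had 2 and 7, and bin 20 had 7 and 13. Bins 17 and 19 were at 0 in all 8 libraries. How many reads were lost in these bins because their sequence repeats was not tested.

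Profiles were most alike within the first set and within run-on. Across bins 1 to 14, Spearman's rho between libraries was 0.947 to 0.982 among the 4 first-set libraries and 0.987 between the run-on libraries. The second-set total RNA libraries had 0.868 with each other and 0.811 to 0.859 with run-on. With the first-set libraries shWhite replicate 2 had 0.846 to 0.916, and shCuff replicate 2 had 0.648 to 0.745. Run-on and first-set libraries had 0.640 to 0.749. These are descriptions over 14 bins that share base composition and mapping, not over independent samples.

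Poly(A) RNA was set against total RNA of the same set. The ratio compares shares of reads between libraries and is not the fraction of a transcript captured by its tail. Over all of chrM the ratio of RPM, poly(A) over total, was 1.14 (1.13 to 1.15) in shWhite and 0.926 (0.919 to 0.933) in shCuff. With TMM scaling, edgeR's scaling by a trimmed mean of log ratios, the shCuff ratio was 1.10, so its direction depends on the scaling. Among bins with at least 100 reads in both libraries, 0 of 11 were at least 2-fold higher in shWhite, against 1.78% of all 4706 such bins, and 0 of 11 were 2-fold lower, against 2.49%. In shCuff 0 of 9 were 2-fold higher, against 2.13% of 4047, and 1 of 9 was 2-fold lower, against 1.75%. The median ratio of the chrM bins was 1.09 in shWhite, against 0.922 over all bins, and 0.823 in shCuff, against 1.01. The chrM median thus lay above that of all bins in shWhite and below it in shCuff, and most bins were within 2-fold of level.

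Single bins departed from this. The highest ratio in shWhite was 1.95 (1.89 to 2.01) in bin 5, with ATP6, from 4885 reads in total RNA and 23684 in poly(A) RNA. In shCuff the same bin had 1.04 (1.00 to 1.08). Bin 6, with COX3 and ND3, had 1.14 in shWhite and 1.22 in shCuff, the highest value in shCuff. The lowest ratios among bins with 100 reads were 0.639 (0.496 to 0.826) in shWhite, in the ND2 bin 1, and 0.319 (0.303 to 0.337) in shCuff, in bin 12 with CYTB and ND1. Bin 12 had 0.690 in shWhite. Bins 10 and 11, under 100 reads in at least 1 library, had 0.195 (0.124 to 0.299) and 0.159 (0.111 to 0.226) in shWhite and 0.193 (0.111 to 0.331) and 0.0352 (0.0154 to 0.0708) in shCuff. In both genotypes these lay below every bin that had 100 reads in both libraries. These are single libraries, and the ratios have no replicate check.

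Run-on was set against total RNA of its own set, to compare RNA extended by polymerases in the run-on reaction with RNA at steady state. Over chrM the ratio of RPM was 6.08 (5.98 to 6.18) between the driver control and shWhite and 26.3 (25.7 to 26.9) in shCuff, where both libraries have the same genotype. The first of these was 2.82 with TMM scaling and 16.1 without bin 2, so its size depends on both choices. Of bins with at least 100 reads in both libraries, 9 of 10 were at least 2-fold higher in run-on in the control comparison, against 30.3% of 3207 bins, and 9 of 9 in shCuff, against 32.1% of 2371. The median ratios of the chrM bins were 10.6 and 17.9, against 1.34 and 1.29 over all bins. These ratios rest on the second-set total RNA, in which chrM was 8.81 and 28.1 times lower than in the first set. Beside the first-set total RNA at 3.01% and 3.06%, the run-on shares of 2.08% and 2.86% lay below it. For the chrM sum, no direction for run-on against total RNA therefore holds across the sets. By bin, run-on exceeded total RNA of both sets in bins 1, 3, 8 and 13, in the control comparison and in shCuff. Bins 2, 4, 5, 6, 9 and 12 exceeded second-set total RNA but lay below first-set total RNA. Bins 7, 10, 11 and 14 had few reads in total RNA.

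Along the genome these ratios were uneven, and they rest on the profile of second-set total RNA, which itself differed from that of the first set. Among bins with at least 100 reads in both libraries, bin 3, within COX1, had the highest run-on over total ratio in both comparisons, 25.4 (24.0 to 27.0) and 65.1 (60.4 to 70.4), and bin 9, with ND5 and ND4, the lowest, 1.75 (1.49 to 2.06) and 5.61 (4.75 to 6.63). Bin 13 (ND1 and lrRNA) had 23.9 and 37.4, above the chrM ratio in both. Bin 5 (ATP6) had 2.17 and 9.83, below it in both. Bin 2 had 2.82 in the control comparison and 26.8 in shCuff. The highest and lowest of these bins differed 14.5-fold in the control comparison and 11.6-fold in shCuff, beyond their counting intervals. Some bins with fewer reads lay outside this range. In the control comparison bin 11 (ND6 and CYTB) had 113 (43.5 to 419). Bin 7 (tRNAs and ND5) had 497 (88.2 to 19716) there, from 1 read in total RNA. Bin 10 (ND4, ND4L and ND6) had 28.0 (15.1 to 57.4), an interval that reaches into the range, and bin 14 (lrRNA) 0.700 (0.490 to 0.982). In shCuff bin 10 had 209 (88.9 to 649), while bins 11, 12 and 14 lay within the range, at 50.0, 27.8 and 23.1. Beside first-set total RNA the order differs: bin 3 had 3729 RPM there in shWhite and 5305 in control run-on, while bin 1 (ND2) had 30.7 and 1348 RPM.

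**Figure D3:**
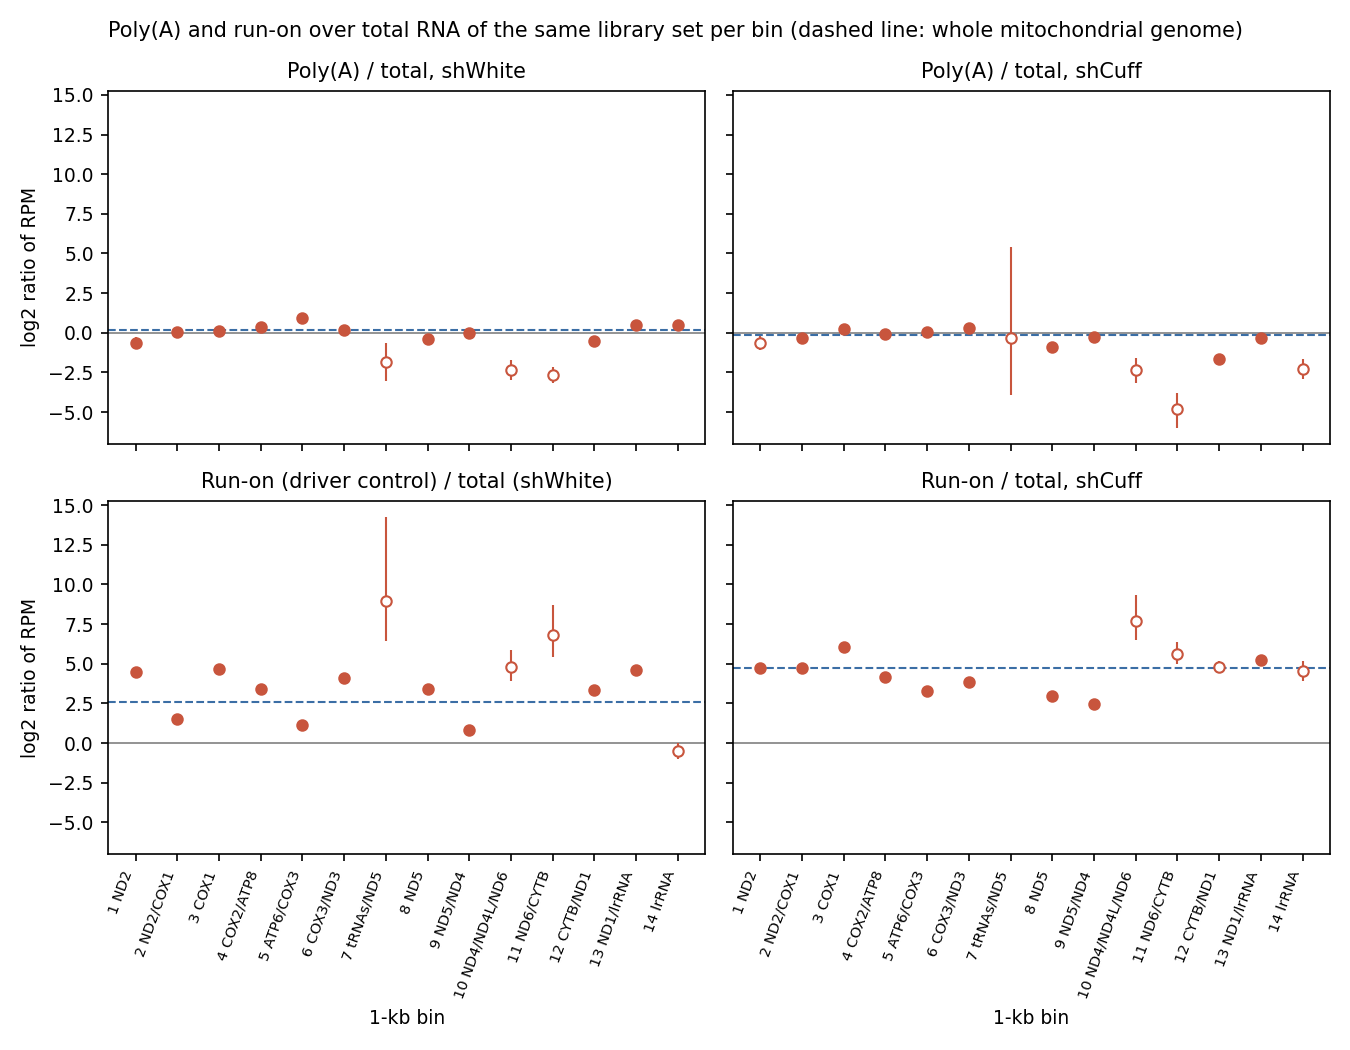
Ratio of RPM between assays of the same library set for bins 1 to 14 (y axis, log2 ratio; x axis, bin number with genes), poly(A) over total RNA above and run-on over total RNA below, with 95% exact counting intervals. Filled points have at least 100 reads in both libraries, open points fewer, bins at 0 in either library are not drawn, and the dashed line is chrM as a whole, at ratios of 1.14 and 0.926 above and 6.08 and 26.3 below.

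The effect of the cuff hairpin on total RNA was tested over both sets. By edgeR's quasi-likelihood test with a term for library set and Benjamini-Hochberg adjustment over all bins, 0 of the 14 chrM bins tested were called, against 0.106% of all 27388 bins, and 1 of the 14 had an unadjusted p under 0.05. Over all bins 1264 had an unadjusted p under 0.05 by edgeR. DESeq2 called 0 of the 13 chrM bins that it gave an adjusted p, against 28 of all 15175 such bins, so few that 0 says little about chrM. By DESeq2, 4 of the 14 chrM bins and 1064 of all 27388 bins had an unadjusted p under 0.05. By limma 0 of all bins were called, so its count of 0 says nothing particular about chrM. The median log2 change of the 14 bins was -0.61, against -0.02 over all bins tested, with 10 bins below 0 and 4 above. The bin with the lowest p was bin 14 (lrRNA), at a log2 change of -1.88 (SE 0.67, edgeR adjusted p = 0.945). For bin 2 it was -1.30 (SE 0.79, edgeR adjusted p = 0.963) and for bin 13 -0.07 (SE 0.51, edgeR adjusted p = 0.999). The 6 bins from 15 to 20 did not reach a mean of 1 RPKM and were not tested.

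The chrM sum, fitted beside 10-kb windows of the nuclear genome, gave -0.81 as its log2 change (SE 0.64, edgeR adjusted p = 0.765). Of the 4355 features in that fit 0.0230% were called. With the set term in the fit, these p-values do not measure the gap between sets. They rest on how far the genotype difference varied between the sets, moderated over all features. The labels do not tie the replicates to separate flies, so that variation may be technical. An exact permutation test of 2 against 2 cannot go below p = 0.33, so none was made. In ovaries as a whole, a change in the number of mitochondrion-rich cells and a change in mitochondrial RNA per cell could not have been told apart.

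The 2 pairs differed. In the replicate 1 pair chrM went from 30092 RPM in shWhite to 30554 in shCuff, a ratio of 1.02 (1.01 to 1.02), which was 0.978 with TMM scaling and 0.926 without bin 2. In the replicate 2 pair it went from 3415 to 1088 RPM, a ratio of 0.319 (0.310 to 0.327), but 0.875 (0.841 to 0.910) without bin 2. The low value of the replicate 2 pair was thus carried by the COX1 start bin, which went from 14673 reads to 2620 at a ratio of 0.138 (0.133 to 0.144), against 1.18 (1.17 to 1.20) in the replicate 1 pair. In that first pair 0 of 9 bins with at least 100 reads were 2-fold higher, against 0.857% of 3967 bins, and 0 of 9 were 2-fold lower, against 0.378%. Ratios below 1 were found in 7 of the 9, against 67.8% of all bins, and the chrM median of 0.912 was close to the 0.917 of all bins. In the replicate 2 pair 4 of 9 bins were 2-fold lower, against 13.4% of 7665, and 0 were 2-fold higher, against 7.92%, with 5 of 9 below 1, against 59.2%. The 4 lower bins were bin 2, bin 3 (COX1), bin 5 (ATP6) and bin 9 (ND5 and ND4), and the highest was bin 1 (ND2), at 1.79 (1.57 to 2.03).

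In poly(A) RNA the mitochondrial share of reads was lower in the shCuff library than in the shWhite library. This compares 1 library with 1 library, so the spread between libraries is not known here. The chrM sum went from 34340 RPM in shWhite to 28282 in shCuff, a ratio of 0.824 (0.819 to 0.828) from 287310 and 309198 reads. Of 10 bins with at least 100 reads, 9 had a ratio below 1, against 47.9% of all 7898 such bins, with a median of 0.745 against 1.01. At least 2-fold lower were 3 of 10, against 0.785%, and 2-fold higher 0 of 10, against 0.443%. The 3 were bin 12 (CYTB and ND1) at 0.300 (0.287 to 0.313), bin 13 (ND1 and lrRNA) at 0.413 (0.401 to 0.426) and bin 5 (ATP6) at 0.460 (0.451 to 0.470). Bin 6, with COX3 and ND3, was the exception above 1, at 1.05 (1.04 to 1.06). In reads, bin 12 went from 7395 to 2896 and bin 13 from 12940 to 6988, while the library grew from 8366673 to 10932667. Within 1 genome the bins therefore did not move together, with a 3.50-fold spread between the highest and lowest ratio. The bins of 1 genome share precursors and are not independent of each other.

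Bins 12 and 13 also had the lowest ratios among bins with 100 reads in the total RNA pair of that set, where bin 12 had 0.648 (0.616 to 0.681), bin 13 had 0.729 (0.692 to 0.768) and bin 14, with few reads, had 0.534 (0.379 to 0.745). In the replicate 2 pair, bin 12 had 0.447 (0.329 to 0.604), bin 13 had 1.24 (1.11 to 1.39) and bin 14 had 0.134 (0.0849 to 0.205). Bins 12 and 14 were thus below 1 in the 3 RNA pairs, and bin 13 in the first-set pairs alone. Whether poly(A) and total RNA of a set came from the same RNA preparation is not given in the sources used here.

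In run-on the mitochondrial share of reads was higher in shCuff than in the driver control. The chrM sum went from 20760.0 RPM in the control to 28615 in shCuff, a ratio of 1.38 (1.36 to 1.39) from 50626 and 71878 reads. All 13 bins with at least 100 reads in both libraries had a ratio above 1, against 33.6% of all 2865 such bins, and their median was 1.55 against 0.848. At least 2-fold higher were 3 of 13, against 3.60%, and 2-fold lower 0 of 13, against 9.53%. The 3 were bin 10 (ND4, ND4L and ND6) at 2.63 (2.15 to 3.24), bin 1 (ND2) at 2.12 (2.04 to 2.21) and bin 7 (tRNAs and ND5) at 2.08 (1.77 to 2.46). The lowest was bin 6 (COX3 and ND3), at 1.04 (1.00 to 1.08). Bin 14 (lrRNA) and bin 16 (control region), under the read minimum in the control, had 4.42 (3.19 to 6.25) and 5.39 (3.91 to 7.58). These values compare 1 library with 1 library, and the hairpin and the background genotype changed together, so an effect of cuff and one of the control genotype cannot be told apart. How much mitochondrial material each nuclear run-on preparation held is not known here, and its part in the run-on values was not tested.

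**Figure D4:**
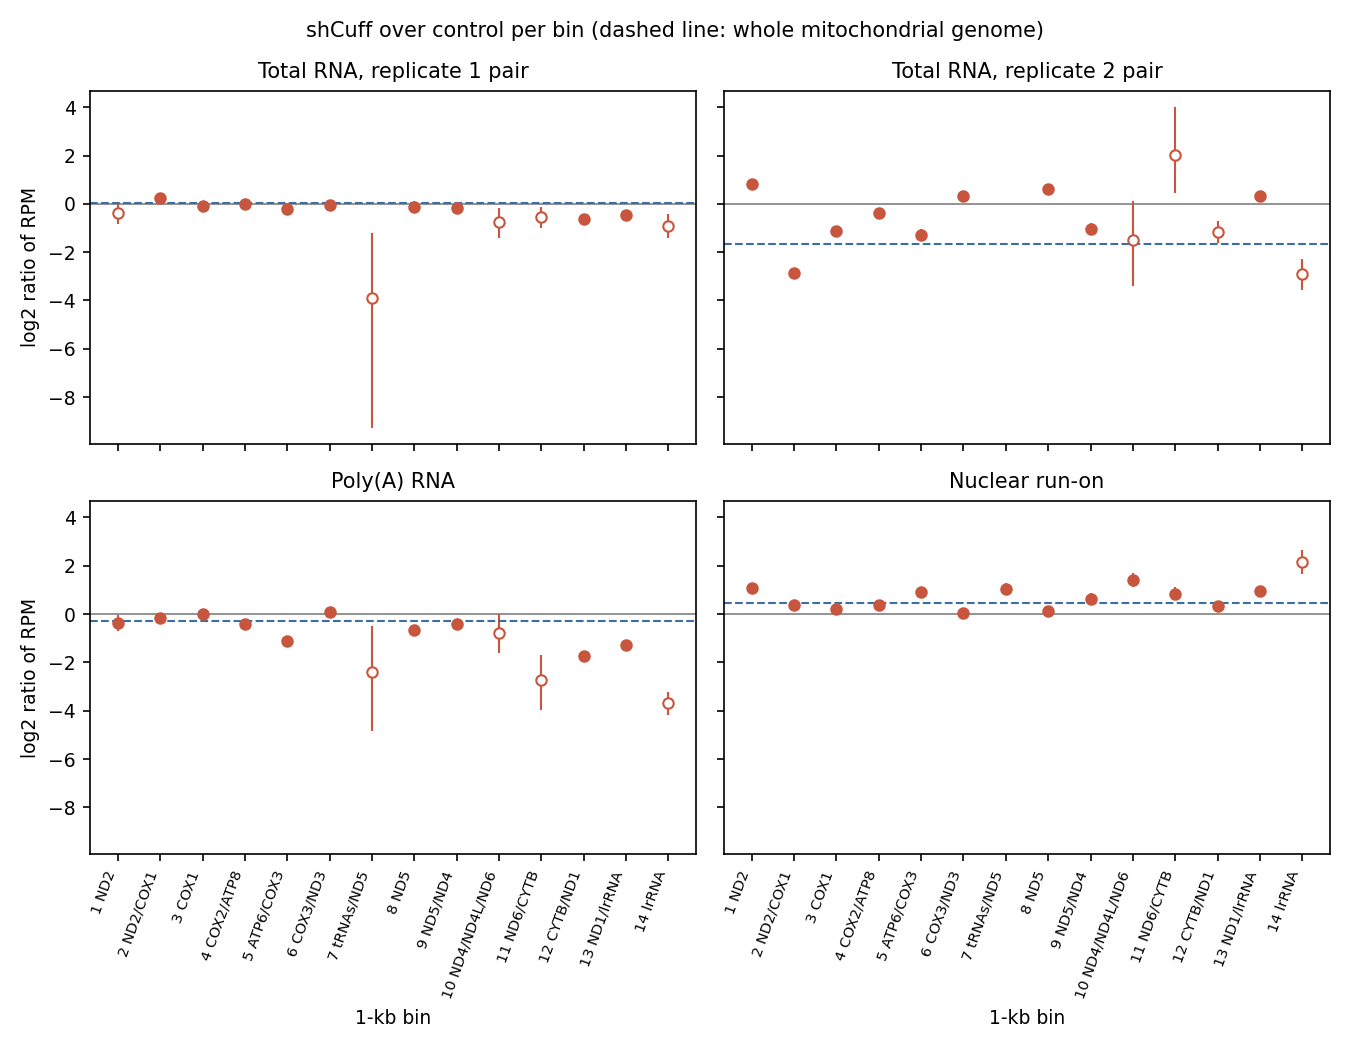
Ratio of RPM, shCuff over control, for bins 1 to 14 (y axis, log2 ratio; x axis, bin number with genes) in the 4 pairs of libraries, with 95% exact counting intervals; filled points have at least 100 reads in both libraries, open points fewer, and bins at 0 in either library are not drawn. The dashed line is chrM as a whole, at ratios of 1.02 and 0.319 in total RNA, 0.824 for poly(A) RNA and 1.38 for run-on.

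Of the 8 bins with at least 100 reads in all 8 libraries, 0 lay on the same side of 1 in all 4 pairs. Bin 3, within COX1, had ratios of 0.934 and 0.456 in pairs 1 and 2 of total RNA, 0.992 (0.978 to 1.006) with poly(A) selection and 1.17 for run-on. Bin 9, with ND5 and ND4, had 0.888, 0.483, 0.743 and 1.55 in the same order. These bins, with bin 5 (ATP6), were the 3 that lay below 1 in each RNA pair and above 1 in run-on. For bin 3 the side of 1 in poly(A) RNA was within counting error. Bin 4 (COX2 and ATP8) had 1.00 (0.982 to 1.024), 0.765, 0.747 and 1.31, with an interval across 1 in the first pair. Bin 6 (COX3 and ND3) had 0.979 (0.957 to 1.001), 1.24, 1.05 and 1.04, so its side of 1 in the first pair was within counting error. Every chrM bin with 100 reads in both run-on libraries was above 1 there, so these counts follow in part from the single pairs. They also depend on scaling. In the replicate 1 pair 2 of 9 bins were above 1. With totals that leave out the most abundant nuclear bin it was 3, and with TMM scaling 1. The share of all bins of the genome with either pattern was not computed, so the counts describe the 8 bins alone.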

How the data were processed

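Per the submitters' processing notes, the tools were cutadapt and Bowtie 0.12.7 and the build was dm3. Read filters, the counting tool and the handling of reads with several matches are not stated in the labels. The authors' count of reads per 1-kb bin was whole in the first set. In the second set 1 to 8 bins per library (0 on chrM) held deposited estimated counts that were not whole, and these were rounded here. The authors' RPKM per bin, as deposited, is the read count scaled by the authors to bin length and library reads. The limma fits used RPKM calculated here from the counts, for the 1-kb bins and for the 10-kb windows with the chrM sum. A code in the names of the deposited files differs between the sets and may be a mismatch limit, so levels set across the sets may differ by mapping.

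Total RNA was tested with edgeR 4.0.16 (quasi-likelihood, R 4.3.3) on counts scaled to total reads, with terms for genotype and library set and 1 residual degree of freedom. Bins entered if their RPKM averaged 1 or more over the 4 libraries, and the Benjamini-Hochberg threshold was 0.05. DESeq2 1.42.0 and limma 3.58.1 (pseudocounts of 1 and 0.1) were alternatives, and the edgeR script was tested on simulated data. The other assays had 1 library per group and no test. A bin ratio entered the counts with 100 reads in both libraries and was counted past 2-fold. The rule for naming took the chrM sum, the rRNA bins, the bin with the most reads and the extreme ratios, and other bins were named after their values were seen. The members and lists were chosen with earlier results of these data known. The library set is a block because the titles give it: deviations from group means correlated at 0.587 between libraries of a set over 27388 bins. Replicate numbers follow the accession order within a group.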

Additional observations from a re-analysis of the deposited data

Results flagged for a closer look

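The chrM sum moved in opposite directions in the assays with 1 pair each. Its ratio of shCuff over control was 0.824 in poly(A) RNA, where the control was shWhite, and 1.38 in run-on, where the control was the driver alone. The difference between the assays was not tested, and the control genotype differs with the assay.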

How the results depend on the processing

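In total RNA the count of chrM bins called was 0 in every alternative run on all 4 libraries. Limma with either pseudocount and the fit with no replicate block called 0 of all bins, so their 0 on chrM says nothing about chrM. Of all 27388 bins, 4 were called with TMM, 22 with nuclear reads as library sizes and 10 with totals without the most abundant nuclear bin. DESeq2 called 28 of 15175 bins and the fit with no filter 59 of 62580. With so few calls, 0 on chrM says little in these runs. The log2 change of the chrM sum was -0.85 to -0.79 with another scaling, tool or filter and -0.08 with no replicate block (edgeR adjusted p = 1.00). Fits that left out 1 library could hold no set term, so they carry the gap between sets, and the lone library is assumed to vary like the others. There the sum ran from -3.94 to 2.21 with no call, above 0 without shWhite replicate 1 (2.21) or shCuff replicate 2 (0.87). Likewise bin 2 ran from -4.19 to 1.30 (0.93 without shCuff replicate 2), bin 13 from -2.39 to 2.32 (0.43 without shCuff replicate 2) and bin 14 from -3.09 to -0.73.

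Of the chrM sum ratios, those of the replicate 1 pair and of poly(A) over total RNA in shCuff crossed 1 under TMM and without bin 2, and the others did not cross it. Leaving out bin 2, an alternative chosen after seeing the data, gave shCuff over control ratios of 0.926 and 0.875 in the total RNA pairs, 0.787 for poly(A) RNA and 1.41 for run-on, poly(A) over total ratios of 1.20 in shWhite and 1.02 in shCuff, and 16.1 for run-on over total in the control. TMM scaling gave 0.978 for replicate 1, 0.790 for poly(A) RNA, 1.34 for run-on, 1.39 and 1.10 for poly(A) over total in shWhite and shCuff, and 2.82 and 21.9 for run-on over total in the control and shCuff. Without the rRNA bins the total RNA ratios were 1.03 and 0.295, poly(A) 0.844, run-on 1.31, poly(A) over total in shWhite 1.13, and run-on over total 5.63 and 25.02. With nuclear reads as library sizes poly(A) was 0.818 and run-on over total 6.19 and 27.05. Without the most abundant nuclear bin replicate 1 was 1.04 and poly(A) over total 1.21 and 0.954.

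Without that bin the chrM share was 3.18% and 3.30% in replicate 1 of shWhite and shCuff, 3.83% and 3.14% in poly(A) RNA, 0.347% in shWhite replicate 2, and 2.90% in shCuff and 2.10% in control run-on. Against reads outside unplaced and heterochromatic scaffolds the same shares were 3.23%, 3.35%, 3.90%, 3.19%, 0.351%, 3.004% and 2.15%. Without the rRNA bins, bins 2 and 3 held 48.99% and 53.4% of chrM reads in replicate 1 of shWhite and shCuff, 45.2% and 49.7% in poly(A) RNA, 84.5% and 46.5% in replicate 2, and 64.9% in shCuff and 67.8% in control run-on. Low counts limit bins 7, 10 and 15 to 20, which had under 100 reads in every RNA library, and the reason for these counts was not tested.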
